A study of Arabidopsis thaliana with 9 samples.

Results

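The genes described are members of the photoperiodic flowering pathway of Arabidopsis thaliana, the CDF and CONSTANS-like genes, chosen by name with earlier results of these data known: CDF1, CDF2, CDF3, CDF5, FKF1, CONSTANS (CO), COL1, COL2, COL5 and COL9. They are 10 of 37898 genes in the deposited table. The libraries came from polyadenylated RNA of 2-week-old seedlings on long days (16 h light, 22 °C, then 8 h dark, 18 °C). Each of 3 genotypes has 3 libraries: the mutant nrpe1-11, whose NRPE1 gene encodes the main catalytic subunit of RNA polymerase V, the mutant nrpd1-3, whose NRPD1 gene does the same for RNA polymerase IV, and wild-type Col-0. All 9 are labelled as mock-treated plants of the Col-0 ecotype, so no group carries a treatment that another lacks. RNA polymerases IV and V are plant enzymes of RNA-directed DNA methylation, the first needed to make small RNAs and the second to make the transcripts they pair with. The labels give neither the hour of collection nor whether replicates came from separate plants, so the p-values below measure the spread between these libraries. Values are FPKM, fragments per kilobase of transcript scaled to the library's mapped fragments, a level per length.

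In the leaf, CO is a B-box transcription factor that switches on FT, the mobile flowering signal, in the phloem late on long days. The CYCLING DOF FACTORs (CDFs) bind DNA at AAAG and repress CO and FT in the morning. FKF1 is a blue-light receptor and F-box protein which, together with GIGANTEA (GI), has the CDFs degraded in the afternoon. COL1 and COL2 are the closest relatives of CO, COL5 can advance flowering when overexpressed, and COL9 delays flowering and lowers CO and FT RNA. The RNA of most of these genes cycles over the day under the circadian clock, and the levels below belong to a collection hour that is not stated.

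In nrpe1-11 seedlings COL9 was higher than in Col-0, and CDF3, COL1, COL2 and COL5 were lower. CO was also listed higher, but it passed the filter of at least 1 FPKM in at least 3 libraries only through the 3 nrpe1-11 libraries (0 of nrpd1-3 and 0 of Col-0 reached it), so its values are given as a description and its call supports nothing. Against the libraries labelled nrpd1-3, COL9 was again higher, and CDF1, CDF3, COL1, COL2 and COL5 were lower. None of the 10 passed the test between the libraries labelled nrpd1-3 and Col-0, beside 0% of all genes tested. Over all 18212 genes tested, 21.7% were called between nrpe1-11 and Col-0, 14.2% as higher and 7.54% as lower, beside 1 higher and 4 lower of the 9 members other than CO. The 2581 genes called higher became 1593 to 1686 without any 1 of the nrpe1-11 libraries or Col-0 replicate 2, and 1185 after median-ratio rescaling, where 35.3% of calls were higher against 65.3% here. The groups did not overlap for these 5 members and CO, beside 39.4% of all genes tested, 28.7% above and 10.7% below. The median change of the 10 genes was -0.20 on the log2(FPKM + 1) scale, and that of the 9 without CO was the value of COL5, -0.32, against 0.17 over all genes tested. All calls are from limma at an adjusted p (Benjamini-Hochberg over all genes tested) under 0.05. All 10 members passed the filter.

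**Figure D1:**
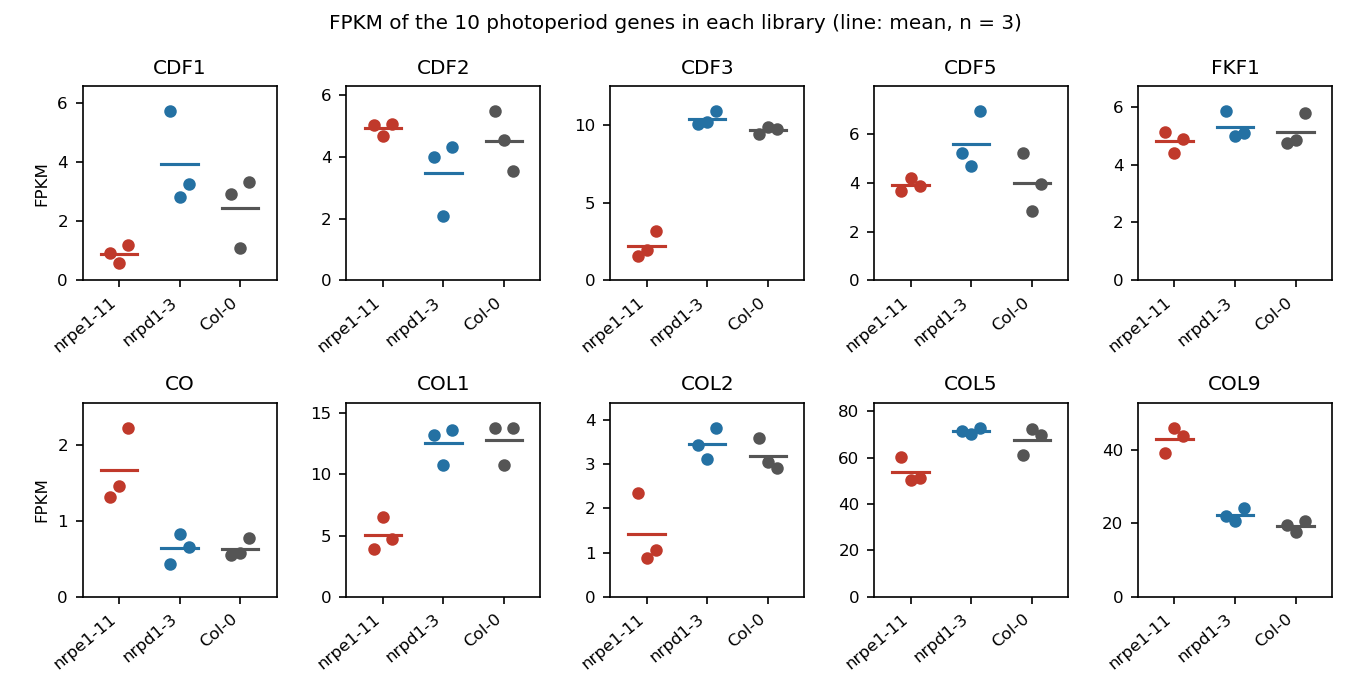
FPKM of the 10 genes, 1 panel per gene with its own linear axis from 0, with points for the 3 libraries of nrpe1-11, nrpd1-3 and Col-0 from left to right and a line at each mean. The nrpe1-11 points lie apart from those of both other genotypes for CDF3, CO, COL1, COL2, COL5 and COL9.

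The genes lie on chromosomes 1, 3 and 5 of the TAIR10.1 assembly. CO (AT5G15840) lies at chr5:5170162-5173085 on the minus strand, and COL1 (AT5G15850) at chr5:5176091-5177897, also on the minus strand and upstream of CO. The 300 bases directly upstream of the annotated transcription start of 4 members, read 5′ to 3′ on the gene's own strand from the RefSeq TAIR10.1 genome, are shown because the clock and the CDFs are known to act on genes of this pathway through short elements. FKF1 (chr1:25508339-25508638, plus strand) and COL2 (chr3:489468-489767, minus strand) are the members with an evening element, AAAATATCT, which is in capitals there, on the reverse strand in FKF1 and on the forward strand in COL2. CDF3 (chr3:17506125-17506424, minus strand), the member with the largest fall, holds none of the 3 clock motifs searched and is printed without capitals. For CO (chr5:5173086-5173385, minus strand), the known target of the CDFs, capitals mark the DOF core AAAG on either strand.
FKF1: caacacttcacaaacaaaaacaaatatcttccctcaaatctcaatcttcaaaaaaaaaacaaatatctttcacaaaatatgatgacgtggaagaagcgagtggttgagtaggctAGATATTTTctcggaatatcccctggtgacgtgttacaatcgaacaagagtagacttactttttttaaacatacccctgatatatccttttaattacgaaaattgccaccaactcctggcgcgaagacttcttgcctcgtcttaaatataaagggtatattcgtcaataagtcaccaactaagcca
COL2: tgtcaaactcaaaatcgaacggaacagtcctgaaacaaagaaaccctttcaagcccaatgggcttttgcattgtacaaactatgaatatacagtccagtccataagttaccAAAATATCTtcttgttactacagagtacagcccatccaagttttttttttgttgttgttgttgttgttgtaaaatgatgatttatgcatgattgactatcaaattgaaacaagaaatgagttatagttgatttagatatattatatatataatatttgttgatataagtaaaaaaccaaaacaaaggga
CDF3: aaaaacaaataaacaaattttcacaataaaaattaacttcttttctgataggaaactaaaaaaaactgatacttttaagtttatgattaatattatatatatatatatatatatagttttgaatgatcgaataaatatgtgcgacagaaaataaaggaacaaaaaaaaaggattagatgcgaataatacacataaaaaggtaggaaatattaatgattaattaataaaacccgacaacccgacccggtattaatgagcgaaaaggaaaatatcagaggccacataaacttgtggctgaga
CO: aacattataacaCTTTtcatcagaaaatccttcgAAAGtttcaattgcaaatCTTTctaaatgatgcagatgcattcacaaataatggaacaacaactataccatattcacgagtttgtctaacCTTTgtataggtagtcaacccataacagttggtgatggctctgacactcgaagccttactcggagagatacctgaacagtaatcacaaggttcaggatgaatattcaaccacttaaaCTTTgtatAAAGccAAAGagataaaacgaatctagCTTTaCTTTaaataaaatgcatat

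These matches are a description of letters and say nothing of binding. The evening element stood in 2.79% of the 300-base windows upstream of 27443 protein-coding genes and in 2 of the 10 members. It lay at bases -186 to -178 before the start in FKF1 and at -189 to -181 in COL2. The CCA1-binding site AAAAATCT, in 7.94% of all windows, was found upstream of CDF5 alone among the members, and the G-box CACGTG, in 7.09%, upstream of CDF2 alone. Each was searched on both strands, and no member held more than 1 of these 3 motifs, so no matches overlapped. The DOF core AAAG was in 99% of all windows, with a median of 5 matches, and in all 10 members, with 9 matches in CO. Of the pair with the evening element, COL2 fell in nrpe1-11 against Col-0 and FKF1 was not called, and the difference between their changes was not tested.

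Among the CDF repressors, CDF3 changed most. CDF3 (AT3G47500) had 1.59, 1.95 and 3.17 FPKM in nrpe1-11, 10.1, 10.2 and 10.9 FPKM in nrpd1-3, and 9.46, 9.86 and 9.78 FPKM in Col-0. Every nrpe1-11 library lay below every other library, and the highest of them was nrpe1-11 replicate 3. Its mean of 2.24 ± 0.825 FPKM in nrpe1-11 against 9.7 ± 0.212 in Col-0 (SD, n = 3 each) is a ratio of 0.231. The log2(FPKM + 1) change was -1.75 (SE 0.17, adjusted p = 3.19e-06, limma) against Col-0 and -1.85 (adjusted p = 1.6e-06) against nrpd1-3. It kept the call in all 19 alternative settings, with changes of -2.13 to -1.61 against Col-0.

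CDF1 (AT5G62430), the best studied of the CDF repressors, had 0.933, 0.568 and 1.18 FPKM in nrpe1-11, 5.71, 2.83 and 3.27 FPKM in nrpd1-3, and 2.93, 1.09 and 3.32 FPKM in Col-0. The nrpe1-11 libraries lay below all 3 of nrpd1-3 but overlapped Col-0, whose replicate 2 stood low. Against nrpd1-3 the log2 change was -1.35 (SE 0.285, adjusted p = 0.00404, limma). Against Col-0 it was -0.81 (95% interval -1.42 to -0.20, adjusted p = 0.0557) and missed the threshold. Without Col-0 replicate 2, the library with the largest share of ribosomal RNA, the change was -1.13 with an adjusted p of 0.0076, and it was also called after each of the 3 rescalings. It stayed uncalled in 11 of 18 alternatives, among them without Col-0 replicate 1 (adjusted p = 0.152) or 3 (0.185) and with no filter (0.296). The call on CDF1 against nrpd1-3 was lost with no filter (adjusted p = 0.0997). The ratio of mean FPKM in nrpe1-11 to that in nrpd1-3 was 0.227 for CDF1 and 0.215 for CDF3. Their log2(FPKM + 1) changes lie farther apart because that scale understates changes of low genes.

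CDF2 and CDF5, which act redundantly with CDF1 and CDF3, were not called in any comparison. CDF2 ranged over 4.67 to 5.08 FPKM in nrpe1-11, 2.09 to 4.33 in nrpd1-3 and 3.54 to 5.48 in Col-0, with a log2 change of 0.12 against Col-0 (95% interval -0.33 to 0.57). CDF5 (AT1G69570) ranged over 3.66 to 4.22 FPKM in nrpe1-11, 4.68 to 6.94 in nrpd1-3 and 2.85 to 5.22 in Col-0. Its log2 change was 0.00 against Col-0 (95% interval -0.41 to 0.42) and -0.41 against nrpd1-3 (adjusted p = 0.185, limma), where the nrpe1-11 libraries lay below all of nrpd1-3. A p above the threshold does not show that either gene was unchanged. CDF5 shares 1241 bases with AT1G69572, an antisense RNA on the other strand, which had 4.93, 2.06 and 3.82 FPKM in nrpe1-11, 2.25, 3.24 and 2.26 FPKM in nrpd1-3 and 2.21, 2.41 and 2.25 FPKM in Col-0. That antisense RNA was not called either (log2 change 0.43 against Col-0, adjusted p = 0.191), except without its lowest nrpe1-11 library, replicate 2 (0.70, adjusted p = 0.0385), and without stated strandedness reads of the pair cannot be told apart.

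The make-up of the CDF RNA pool differed between genotypes; these sums and ratios are descriptions without a test. The summed FPKM of the 4 CDF genes was 11.2, 11.4 and 13.3 in nrpe1-11, 25, 19.8 and 25.4 in nrpd1-3, and 23.1, 18.3 and 20.6 in Col-0. No nrpe1-11 sum reached that of any other library. CDF3 made up 18.4% ± 4.92 of the sum in nrpe1-11, 44.9% ± 5.85 in nrpd1-3 and 47.4% ± 6.4 in Col-0 (SD, n = 3 each), and CDF2 made up 41.3%, 14.5% and 21.9% in nrpe1-11, nrpd1-3 and Col-0. The ratio of CDF2 to CDF3 lay between 1.61 and 3.17 in nrpe1-11, between 0.205 and 0.398 in nrpd1-3 and between 0.362 and 0.579 in Col-0. In each nrpe1-11 library CDF2 thus had more RNA per length than CDF3, and in each other library less.

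**Figure D2:**
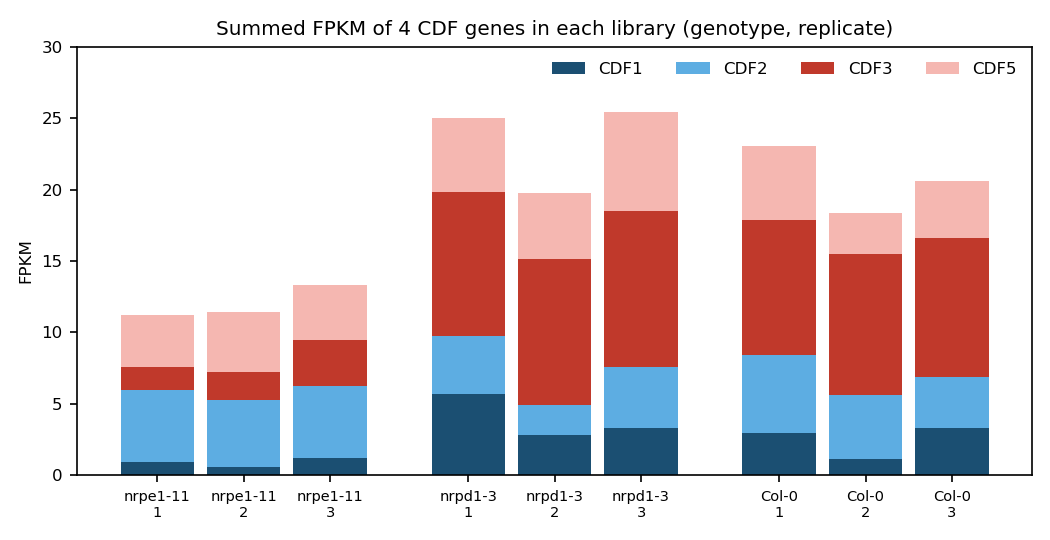
Stacked bars of the FPKM of CDF1, CDF2, CDF3 and CDF5 in each of the 9 libraries, nrpe1-11 at the left, nrpd1-3 in the middle and Col-0 at the right, on an axis from 0. The nrpe1-11 bars reach 11.2 to 13.3 FPKM against 18.3 to 23.1 FPKM in Col-0, and most of the missing height is the CDF3 segment.

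FKF1 (AT1G68050), whose protein removes the CDFs, stayed within a narrow band. Its level was 5.12, 4.39 and 4.89 FPKM in nrpe1-11, 5.84, 4.98 and 5.08 FPKM in nrpd1-3, and 4.73, 4.85 and 5.78 FPKM in Col-0. The 3 genotypes overlapped, and the log2 change was -0.08 against Col-0 (95% interval -0.40 to 0.25, adjusted p = 0.75, limma).

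CO, the activator of FT, was scarce in every genotype. It had 1.31, 1.46 and 2.22 FPKM in nrpe1-11, 0.43, 0.821 and 0.656 FPKM in nrpd1-3, and 0.546, 0.579 and 0.777 FPKM in Col-0. The lowest nrpe1-11 library lay above the highest of the other genotypes. The mean was 1.66 ± 0.489 FPKM in nrpe1-11 and 0.634 ± 0.125 in Col-0 (SD, n = 3 each), a ratio of 2.63. The log2(FPKM + 1) difference was 0.69 against Col-0 and 0.70 against nrpd1-3, which understates the ratio because the level is near the pseudocount of 1. Since the filter let CO in only through nrpe1-11, its adjusted p of 0.0394 (limma) against Col-0 is not taken as support, and with no filter it was 0.052. The values rest on little depth: about 4050, 4780 and 7880 aligned bases in nrpe1-11, against 1960, 1710 and 2770 in Col-0, as read from the spacing of low values. The adjusted p ranged over 0.0378 to 0.161 across the alternatives and missed the threshold without any 1 Col-0 or nrpe1-11 library, with differences of 0.55 to 1.24. AT5G15843, which runs on the other strand over 1967 bases of CO, was at 0 to 0.0845 FPKM in all 9 libraries.

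COL1 and COL2, the nearest relatives of CO, were lower. COL1 had 3.91, 6.51 and 4.69 FPKM in nrpe1-11, 13.2, 10.8 and 13.6 FPKM in nrpd1-3, and 13.8, 10.8 and 13.8 FPKM in Col-0. All nrpe1-11 libraries were below all others, with a log2 change of -1.21 against Col-0 (SE 0.168, adjusted p = 0.000117, limma) and -1.18 against nrpd1-3 (adjusted p = 0.000136). The call held in all 19 alternatives. The whole of COL1 is covered on the other strand by the long non-coding RNA AT5G15845, which had 1.28, 0.564 and 0.41 FPKM in nrpe1-11, 0.472, 0.458 and 0.182 FPKM in nrpd1-3, and 0.714, 0.156 and 0.191 FPKM in Col-0, below COL1 in the same libraries.

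COL2 (AT3G02380) had 2.34, 0.88 and 1.05 FPKM in nrpe1-11, 3.43, 3.11 and 3.82 FPKM in nrpd1-3, and 3.6, 3.04 and 2.92 FPKM in Col-0. The groups did not overlap, but nrpe1-11 replicate 1 stood close to Col-0. The log2 change was -0.84 against Col-0 (SE 0.22, adjusted p = 0.014, limma) and -0.92 against nrpd1-3 (adjusted p = 0.00923). The call against Col-0 was lost without nrpe1-11 replicate 2 (-0.68, adjusted p = 0.065) or replicate 3 (-0.74, adjusted p = 0.0582). With no filter the COL2 calls against Col-0 and against nrpd1-3 were both lost (adjusted p of 0.0943 and 0.0853, limma). COL2 shares 771 bases with AT3G02370 on the other strand, which had 4.19, 2.54 and 2.78 FPKM in nrpe1-11, 3.28, 1.35 and 3.6 FPKM in nrpd1-3, and 1.65, 2.38 and 2.84 FPKM in Col-0. It also shares 688 bases with AT3G02390 on the other strand. AT3G02390 had 0.231, 1.54 and 0.192 FPKM in nrpe1-11, 0.285, 0.0253 and 0.417 FPKM in nrpd1-3, and 0.084, 0.0122 and 0.0452 FPKM in Col-0. In nrpe1-11 replicate 2 it lay above COL2. Reads of COL2 and these 2 genes cannot be told apart where they overlap.

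CO and COL1 are neighbours on chromosome 5, and their ratio and sum are given here as descriptions without a test. The ratio of CO to COL1 FPKM was 0.225 to 0.473 in nrpe1-11, 0.0325 to 0.0759 in nrpd1-3 and 0.0396 to 0.0563 in Col-0. The sum of CO, COL1 and COL2 was 8.12 ± 0.666 FPKM in nrpe1-11, 16.6 ± 1.71 in nrpd1-3 and 16.6 ± 1.89 in Col-0 (SD, n = 3 each). In FPKM, the mean of CO differed less between nrpe1-11 and Col-0 than that of COL1. As ratios the differences were alike in size: 2.63 for CO (nrpe1-11 over Col-0) and 2.54 for COL1 (Col-0 over nrpe1-11).

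COL9 and COL5 were the most abundant of the 10 genes in every genotype. COL9 (AT3G07650), the repressor of flowering, had 39.3, 46.1 and 43.8 FPKM in nrpe1-11, 22.1, 20.7 and 24.1 FPKM in nrpd1-3, and 19.7, 17.8 and 20.7 FPKM in Col-0. Every nrpe1-11 library was above every other, with means of 43.1 ± 3.43 FPKM in nrpe1-11 and 19.4 ± 1.47 in Col-0 (SD, n = 3 each), a ratio of 2.22. The log2 change was 1.11 against Col-0 (SE 0.108, adjusted p = 3.21e-06, limma) and 0.92 against nrpd1-3 (adjusted p = 2.06e-05). Across the alternatives it was 0.93 to 1.17 against Col-0 and was called in each of them. Relative to the median gene, whose change was 0.17, COL9 was higher by 0.94.

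COL5 (AT5G57660) had 60.3, 50.5 and 51.1 FPKM in nrpe1-11, 71.3, 70.1 and 72.8 FPKM in nrpd1-3, and 61.1, 72.3 and 69.9 FPKM in Col-0. The groups were separated from Col-0 by a narrow gap, between nrpe1-11 replicate 1 and Col-0 replicate 1. The fall was small, -0.32 against Col-0 (SE 0.0976, adjusted p = 0.0283, limma) and -0.40 against nrpd1-3 (adjusted p = 0.0105). Against Col-0 the call was lost without replicate 2 or 3 of Col-0 (adjusted p of 0.0738 and 0.0801) and without replicate 2 or 3 of nrpe1-11 (adjusted p of 0.109 and 0.103), and leaving out either of these nrpe1-11 libraries also ended the call against nrpd1-3 (-0.36 and -0.37). With no filter the COL5 calls against Col-0 and against nrpd1-3 were both lost (adjusted p of 0.0903 and 0.0541, limma). The ratio of COL9 to COL5 lay between 0.652 and 0.912 in nrpe1-11, between 0.295 and 0.331 in nrpd1-3 and between 0.246 and 0.322 in Col-0.

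**Figure D3:**
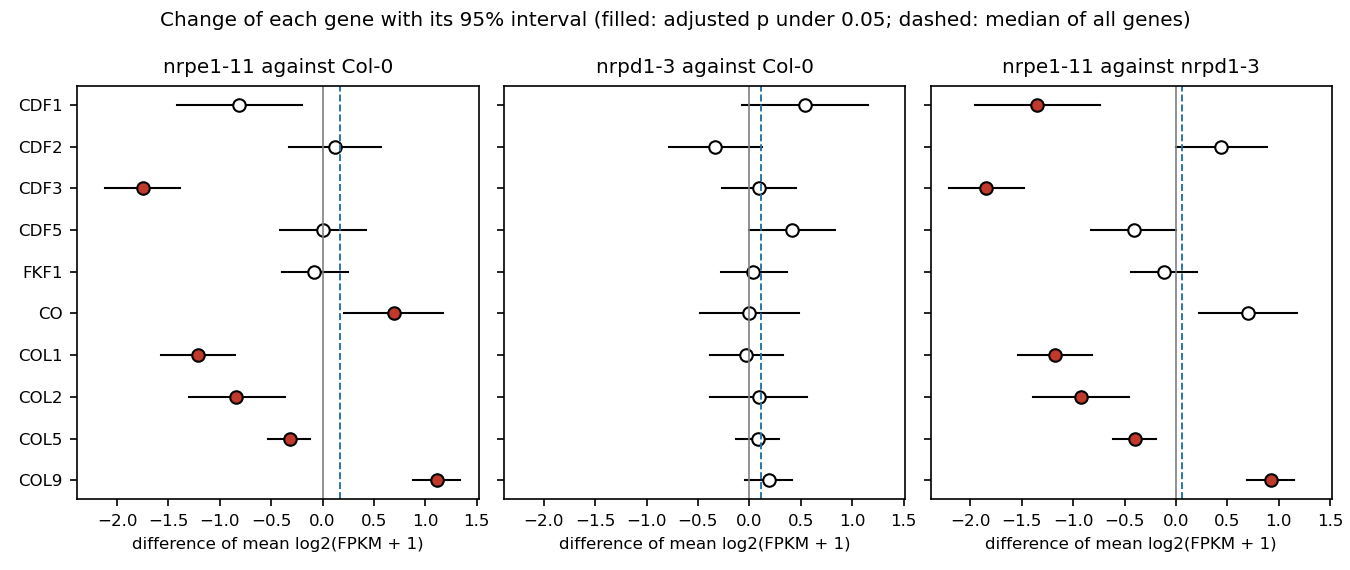
Log2(FPKM + 1) change of each of the 10 genes with its 95% interval, 1 panel for each pair of genotypes, with filled markers for calls at an adjusted p under 0.05 and a dashed line at the median of all genes. CDF3 lies farthest below 0 and COL9 farthest above it in both comparisons of nrpe1-11, while no marker of nrpd1-3 against Col-0 is filled. The filled marker of CO belongs to a gene that passed the filter only through nrpe1-11.

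Ordered by mean FPKM, Col-0 ran COL5, COL9, COL1, CDF3, FKF1, CDF2, CDF5, COL2, CDF1 and CO. From FKF1 at 5.12 FPKM to CDF1 at 2.45 FPKM each neighbour overlapped the next, while CO at 0.634 FPKM lay apart below. In nrpe1-11 the order became COL5, COL9, COL1, CDF2, FKF1, CDF5, CDF3, CO, COL2 and CDF1, and the last 4, from CDF3 at 2.24 to CDF1 at 0.894 FPKM, overlapped neighbour by neighbour. CDF3 stood at rank 7 in nrpe1-11, against rank 4 in nrpd1-3 and in Col-0, and CO, at rank 8 in nrpe1-11, was last in both other genotypes.

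Between the libraries labelled nrpd1-3 and Col-0 the 10 genes changed by -0.33 (CDF2) to 0.54 (CDF1) on the log2 scale, with a median of 0.08. These values lean on single libraries: CDF1 was 0.22 without Col-0 replicate 2 and 0.30 without nrpd1-3 replicate 1, and CDF2 was -0.20 without Col-0 replicate 1 and -0.08 without nrpd1-3 replicate 2. Of all genes tested, 0% were called by limma, 1284 (7.05%) had an unadjusted p under 0.05, and the smallest adjusted p was 0.681. CDF5 came nearest among the members, with an unadjusted p of 0.0506 and a change of 0.42, but its libraries overlapped Col-0, and the change was 0.24 without Col-0 replicate 2 and 0.28 without nrpd1-3 replicate 3. COL9 and COL1 had changes of 0.19 and -0.03. All 3 nrpd1-3 libraries were above all Col-0 libraries for CDF3 and, by less than the rounding of its values, COL9, which is 2 of 10 members, beside 11.7% of all genes tested, 10.1% above and 1.56% below. Against nrpd1-3, the 1 higher and 5 lower members of nrpe1-11 compare with 14.7% of all genes called, 6.19% as higher and 8.52% as lower. The 1128 genes called higher there became 674, 731 and 683 without nrpe1-11 replicate 3, nrpe1-11 replicate 2 and nrpd1-3 replicate 2, and 1800, against 1675 lower, after rescaling to the protein-coding sum. The groups did not overlap for 9 members, 3 above and 6 below, beside 33.5% of all genes tested, 19% above and 14.5% below. The 3 above were CDF2, COL9 and CO. Since CO passed the filter only through nrpe1-11, its place in this count is a description and supports nothing. The comparisons share libraries, so their values are not independent of each other.

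Of 19 genes that act on the CDFs and CO, all tested, 2 rose, 3 fell and 14 were not called in nrpe1-11 against Col-0, with a median of 0.15. Over all genes tested 21.7% were called and the median was 0.17, so the regulators as a list were near the background. SPA1 (log2 change -0.71, adjusted p = 0.0027) and SPA3 (-0.79, adjusted p = 0.00884), parts of the ligase that has CO degraded in darkness, fell under every scaling. PHYA, the far-red receptor that stabilises CO, rose by 0.35, and HOS1, another ligase for CO, rose by 0.46, but both calls were lost after median-ratio rescaling, and also without nrpe1-11 replicate 2 (adjusted p of 0.0511 and 0.0611), with HOS1 lost as well without replicate 1 of nrpe1-11 or of Col-0 (0.0834 and 0.063). GI, the partner of FKF1, averaged 9.68 ± 0.465 FPKM in nrpe1-11 and 12.8 ± 0.991 in Col-0 (SD, n = 3 each), a change of -0.36 with an adjusted p of 0.0377 that was lost in the fit of the 6 libraries compared (adjusted p = 0.0637) and without any 1 of 7 of the 9 libraries. The relatives of FKF1, ZTL and LKP2, had changes of 0.13 and 0.43 and were not called.

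Among 12 further CONSTANS-like genes, 10 were tested, and 4 were higher, 1 was lower and 5 were not called, with a median of 0.32, beside 14.2% higher and 7.54% lower and a median of 0.17 over all genes tested. The call on COL3 (0.32) was lost after median-ratio and quantile rescaling and without Col-0 replicate 1 (adjusted p = 0.0516) or nrpe1-11 replicate 3 (0.0937), while BBX14 (0.45), BBX17 (0.63) and BBX8 (0.64) held under all 3 scalings. COL7 was the exception in direction, with 0.487, 0.253 and 0.139 FPKM in nrpe1-11, 6.59, 4.51 and 6.53 FPKM in nrpd1-3, and 4.2, 4.57 and 4.55 FPKM in Col-0. It lay in nrpe1-11 far below every other library, and its log2 change of -2.08 (adjusted p = 1.92e-06, limma) was larger than that of any of the 10 members. COL7 passed the filter only through the nrpd1-3 and Col-0 libraries, where it was high, so its call is given as a description only. It is the 1 lower gene counted above and enters the median, so that lower count supports nothing.

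Of the other CDF-type DOF genes, AT2G34140 was not called (-0.15 against Col-0, adjusted p = 0.639). Downstream of CO, FT was below the filter, with 1.33, 0 and 1.07 FPKM in nrpe1-11, 0.175, 0.487 and 0.222 FPKM in nrpd1-3, and 0, 0.238 and 0.377 FPKM in Col-0. The genotypes overlapped, since nrpe1-11 replicate 2 was listed at 0, and TSF was listed at 0 in all 9 libraries. Of 8 targets and partners of CO, 6 were tested and 1 was called, beside 21.7% of all genes tested: NF-YB3, a subunit of the trimer in which CO binds DNA, was higher (0.46, adjusted p = 0.0184), and that call was lost after median-ratio rescaling and without Col-0 replicate 2 (adjusted p = 0.0557) or nrpe1-11 replicate 1 (0.0881).

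Clock genes, whose RNA cycles over the day, differed in the same libraries. Between nrpe1-11 and Col-0, 21.7% of all genes tested were called, 14.2% as higher and 7.54% as lower, with a median change of 0.17. Of 11 morning genes 7 fell, 1 rose and 3 were not called in nrpe1-11 against Col-0, with a median of -1.16, and of 9 evening genes 7 rose, 1 fell and 1 was not called, with a median of 0.71. The counts of both clock sets were the same under all 3 rescalings. CCA1, LNK1 and LNK2, with log2 changes of -2.31, -1.91 and -2.17, were among those that fell, and the morning gene that rose was RVE2 (1.37). Among evening genes, CCR2 rose by 1.02, BOA by 1.47 and TOC1 by 0.79, and the 1 that fell was PRR5 (-0.72). Against Col-0, 0 of either set were called in nrpd1-3, beside 0% of all genes tested. The part of the clock genes' shift in the members' differences was not tested.

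**Figure D4:**
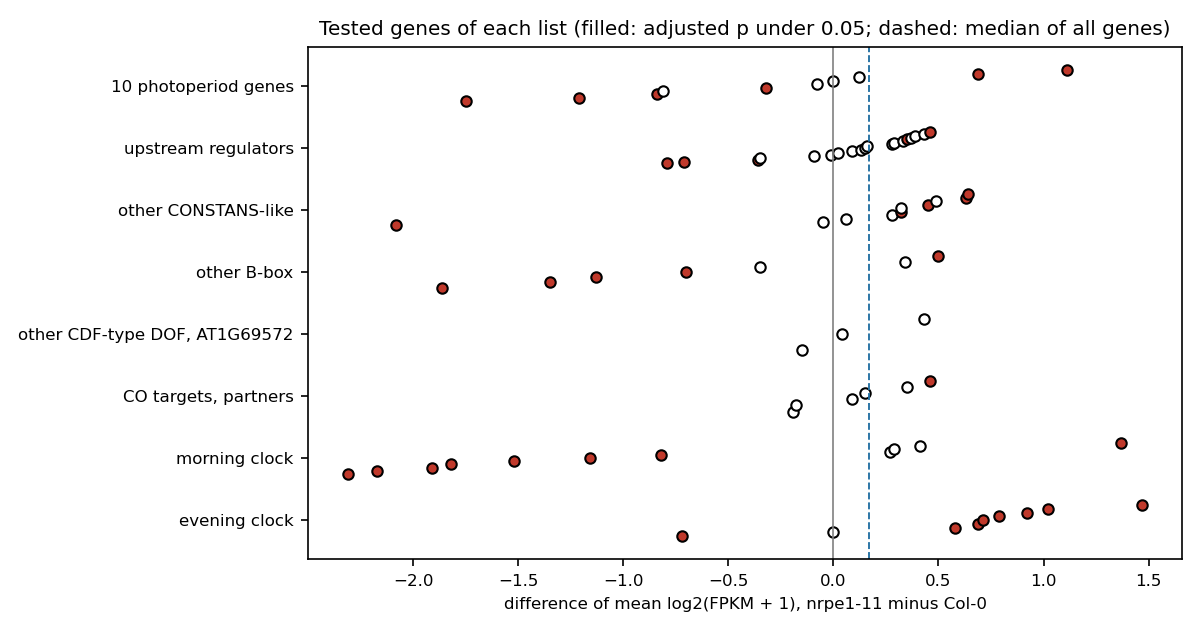
Log2(FPKM + 1) change of nrpe1-11 against Col-0 for each tested gene of the gene lists, 1 row per list, filled where called, with a grey line at 0 and a dashed line at the median of all genes tested (0.17). Morning clock genes lie mostly left of 0 (median -1.16) and evening clock genes mostly right of it (median 0.71), with the 10 members spread on both sides (median -0.20).

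The seedlings were whole, so fewer cells of a type and less RNA per cell cannot be told apart. Markers of the phloem companion cell, where CO and FT act, were not called in 5 of 5 cases, and their summed level was 76.1 to 81 FPKM in nrpe1-11, 70.5 to 80.4 in nrpd1-3 and 66.5 to 72.4 in Col-0. In nrpe1-11, 3 of these 5 lay above every Col-0 library and 0 below, beside 28.7% and 10.7% of all genes tested. All 3 leaf markers fell in nrpe1-11 (sums of 3370 to 3820 FPKM against 5230 to 5940 FPKM in Col-0), beside 7.54% of all genes tested called lower. After quantile normalization 2 of them fell, and RCA, one of the leaf markers, is also known to cycle with the clock. Of 3 root markers, 2 were higher (sums of 544 to 573 FPKM in nrpe1-11 against 352 to 461 FPKM in Col-0), beside 14.2% of all genes tested called higher. Of these root markers, 0 were called after median-ratio rescaling or without nrpe1-11 replicate 3. Flower and seed markers summed to at most 0.604 FPKM in any library. The part of these shifts in the members' differences was not tested.

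By profile over the 9 libraries, 5 genes were most like COL9: GER3, NRT1.5, AT1G26665, DR4 and GRP7, the last being CCR2 of the evening list. Likeness was the root mean square difference of mean-centred log2(FPKM + 1) profiles, from 0.085 for GER3 to 0.104 for GRP7, against a median of 0.47 over all genes. GER3 averaged 126 FPKM in nrpe1-11 and changed by 1.09 against Col-0, close to 1.11 for COL9. The 5 most like CDF3 were AT5G18470, AAC2, PPT2, SOUL-1 and AZI1, from 0.134 to 0.155, with changes of -1.92 to -1.54. Both sets were picked for likeness over these same libraries, so changes near those of COL9 and CDF3 follow from the choice.

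The libraries were alike in depth. Spacing of the low values gave 1.01 to 1.25 aligned gigabases per library, and 16802 to 17604 genes reached 1 FPKM. Ribosomal RNA took 14.2% to 21.4% of the summed FPKM, the most in Col-0 replicate 2. NRPE1 had 0.624, 0.254 and 0.339 FPKM in nrpe1-11 and 0.831, 0.843 and 0.863 FPKM in Col-0, lower in each library but not called (-0.40, adjusted p = 0.196). Since none of these values reached 1 FPKM, NRPE1 passed the filter only through the nrpd1-3 libraries. It was called lower in nrpe1-11 than in nrpd1-3, which is given as a description only. NRPD1 had 1.56, 1.98 and 2.3 FPKM in nrpe1-11, 0.674, 0.67 and 0.947 FPKM in nrpd1-3, and 0.565, 0.489 and 1.05 FPKM in Col-0. NRPD1 was called higher in nrpe1-11 than in both other genotypes, but it needed the nrpe1-11 libraries to pass the filter. Its call against Col-0 was lost without replicate 1 or 2 of Col-0 or replicate 2 or 3 of nrpe1-11. Its change in nrpd1-3 was 0.06 (adjusted p = 0.948), so its RNA did not mark the libraries labelled nrpd1-3, whose genotype is taken from the labels. Exonic 50-base words found elsewhere in the genome were 12 of 2323 in CDF2, 18 of 2070 in FKF1 and 0 in the other 8 genes.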

How the data were processed

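Seedling RNA of 3 genotypes with 3 libraries each was read from 1 table of FPKM that the authors deposited. Per the submitters' processing notes, fastp 0.23.2, HISAT2 2.2.1 and StringTie 2.1.7 were used with TAIR10; read length, strandedness and counts are not given in the sources used here. FPKM are relative to each library's total, so a few abundant RNAs shift all other genes. One gene listed on 32 of the 37929 lines was kept at its largest values. The members and gene lists were chosen with earlier results of these data known, so their counts and medians beside those of all genes are descriptions.

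Genes with at least 1 FPKM in at least 3 of the 9 libraries (18212) were fitted as log2(FPKM + 1), a pseudocount of 1, in limma 3.58.1 (R 4.3.3), with 1 mean per genotype, all 9 libraries sharing the spread, trended empirical Bayes and two-sided contrasts. Fold changes on this scale understate those of low genes. P-values were adjusted by Benjamini-Hochberg over all genes tested. An exact permutation test of 3 against 3 cannot go below 0.1 and was not used. Depth was read from the spacing of low FPKM, and 79.3% to 85% of low values per library fell no farther than 0.1 from a whole step. Positions and sequences came from the RefSeq TAIR10.1 genome and annotation. The procedure was tested on simulated data. Named genes are the 10 members, both mutated genes, GI, ZTL, LKP2, AT2G34140, AT1G69572, FT, TSF, up to 3 called genes per list with the smallest adjusted p in nrpe1-11 against Col-0, and the 5 genes most like COL9 and CDF3. Other genes named in counts of 5 or fewer were chosen after their values were seen. Alternatives were other scalings, filters, pseudocount, threshold and designs, and leaving out each library.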

Additional observations from a re-analysis of the deposited data

How the results depend on the processing

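CDF3 and COL1 kept their direction and call in both comparisons of nrpe1-11 under all 19 alternatives, and COL9 did so against Col-0. The counts of higher and lower members moved with thin calls. Against Col-0, 1 member was higher, in place of 2 with CO, with a 2-fold threshold, a mean of at least 5 FPKM, median-ratio rescaling, no filter, a pseudocount of 0.1 or quantile normalization, and 1 to 2 without single libraries; 2 were lower, in place of 4, with the 2-fold threshold or no filter, and 2 to 5 without single libraries. Against nrpd1-3, higher members were 0 with the 2-fold threshold and 2, in place of 1, with quantile normalization, the replicate block, protein-coding rescaling or without 1 library (range 1 to 2), and lower members were 3 (2-fold, or mean of at least 5 FPKM) or 2 (no filter), in place of 5. Of all genes, 660 and 703 were called against Col-0 and nrpd1-3 with the 2-fold threshold and 2173 and 1668 without a filter, against 3955 and 2679, and nrpd1-3 against Col-0 gave 2 without a filter. The share of calls that were higher against Col-0 was 65.3%, but 35.3% after median-ratio rescaling and 46.7% after quantile normalization.

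Among the members, only uncalled values reversed. Against Col-0 in nrpe1-11, CDF2 was -0.04 (median-ratio) and -0.02 to 0.24 without single libraries, CDF5 was -0.14 (median-ratio), -0.10 (quantile), -0.04 (protein-coding) and -0.17 to 0.17 without single libraries, and FKF1 was -0.12 to 0.00 without single libraries. In nrpd1-3, CDF3 was -0.02, FKF1 -0.06 and COL2 -0.01 or -0.02 after median-ratio or quantile scaling, COL5 -0.05 after median-ratio, FKF1 -0.02 after protein-coding scaling; without single libraries FKF1 was -0.02 to 0.12, COL1 -0.13 to 0.07 and CO -0.08 to 0.09. The cause was not tested. Deviations from the group means correlated by -0.07 to 0.15 between same-numbered libraries and by -0.12 to 0.07 between differently numbered ones. These weak values do not settle whether replicate numbers pair the libraries. A replicate block called 4428 genes in nrpe1-11 against Col-0, in place of 3955, and, of the members, added CDF1 (-0.81). With at least 5 FPKM, 5 members have values. For CO and CDF1 in nrpe1-11, levels near 1 FPKM limit the precision.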

Other observations

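Further B-box genes, most of them regulators of light responses in seedlings, also differed in nrpe1-11. Of 11 such genes 7 were tested, and 4 were lower, 1 was higher and 2 were not called against Col-0, with the same counts under all 3 rescalings, a median change of -0.70 against 0.17 over all genes tested, and 21.7% of all genes called. BBX24 averaged 27.5 ± 1.78 FPKM in nrpe1-11, 59.9 ± 2 in nrpd1-3 and 61.6 ± 6.31 in Col-0 (SD, n = 3 each), a log2 change of -1.13 against Col-0 (adjusted p = 1.08e-06, limma). BBX25, its close relative, averaged 1.09 FPKM in nrpe1-11 and 6.51 FPKM in Col-0 (-1.86, adjusted p = 8.93e-06), and BBX18 averaged 0.313 FPKM in nrpe1-11 and 2.37 FPKM in Col-0 (-1.35, adjusted p = 0.00097). BBX18 passed the filter only through the nrpd1-3 and Col-0 libraries, where it was high, so its call is given as a description only. It is 1 of the 4 lower genes counted above and enters the median, so both include a gene that supports nothing. BBX22 also fell (-0.70), while BBX21, which promotes photomorphogenesis, was higher (0.50). None of the 7 was called between nrpd1-3 and Col-0, beside 0% of all genes tested.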
